A study of Homo sapiens with 6 samples.

Results

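Long non-coding RNA (lncRNA) genes held 407 of the 17375 m6A peaks listed for U-251 MG cells, an established human glioblastoma line. A peak was counted when it touched no RefSeq protein-coding gene body and at least 1 lncRNA gene body, which here means the span from the first to the last base of the gene, introns included. Peaks in TUG1, NEAT1, MALAT1, NORAD and KCNQ1OT1 were left out by the rule, which removed 10 peaks. A further 16692 peaks lay in coding genes and 266 in neither class. The 407 peaks were 210 of 9206 in the control list (2.28%, exact 95% interval 1.99 to 2.61), 77 of 2736 after TRA2A knockdown (2.81%, 2.23 to 3.51) and 120 of 5433 after METTL3 knockdown (2.21%, 1.83 to 2.64). The 3 intervals overlap, so these counts do not set the lists apart, but they do not show that the shares are equal. An lncRNA gene that lies within or across a coding gene body could contribute few or no peaks under this rule, whatever its methylation.

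The lists came from meRIP-seq: RNA fragments that carry N6-methyladenosine (m6A) are enriched with an antibody, sequenced, and set against the same RNA before enrichment. The control cells carried the hairpin construct labelled shNC, and the others carried shTRA2A or shMETTL3, against the splicing regulator TRA2A or the m6A methyltransferase METTL3. Each condition had 1 immunoprecipitated and 1 input library of total RNA, and no replicate. Differences between conditions therefore have no replicate check and no test, and the intervals given here cover counting error only. The labels do not give how many hairpin sequences were used against each target, how long the cells were grown with them, or the sequencing depth. The lists hold peaks and no expression values, so the extent of knockdown, the identity of the cells and the level of each lncRNA were not measured here. A gene without a listed peak may have been unmethylated, scarce or not called, and these cannot be told apart.

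m6A is written on nascent RNA by a complex whose catalytic subunit is METTL3, mostly at adenosines in a GGAC-like context, and it is read by proteins that affect splicing, export, decay and translation. LncRNAs are transcribed and often spliced like messenger RNAs but have no conserved open reading frame. Some act on chromatin close to where they are made, some work in the cytoplasm, and some are processed for small RNAs: miRNA hairpins cut from a host transcript, or snoRNAs released from its introns. In messenger RNAs m6A is known to gather near the stop codon and in long internal exons, landmarks of which lncRNAs lack the first.

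The sequences that can be shown are those of hairpins and of gene start regions, from RefSeq (GRCh38.p14). One peak of the 407 touched a miRNA hairpin on its own strand. It was a control peak of MIR9-2HG, the host transcript of miR-9-2, a miRNA abundant in neural cells. The hairpin lies at chr5:88666853-88666939 (GRCh38, minus strand), is 87 nt long and is shown because the control peak covers 60 of its bases, numbers 28 to 87 from the 5′ end, written in capitals.

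miR-9-2 hairpin: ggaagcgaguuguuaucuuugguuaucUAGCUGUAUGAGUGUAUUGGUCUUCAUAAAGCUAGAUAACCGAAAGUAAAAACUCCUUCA

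The covered part held all 22 bases of miR-9-3p and 11 of the 23 bases of miR-9-5p. The mature arms are shown with the seed, bases 2 to 8, in capitals.

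miR-9-5p: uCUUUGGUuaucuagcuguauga

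miR-9-3p: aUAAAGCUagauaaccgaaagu

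The hairpin held no GGAC followed by A, C or U (T in DNA), forms of the m6A consensus, on its transcribed strand. Of all 1560 hairpins in the RefSeq table, 23.8% held at least 1. Other forms of the consensus were not searched here or below, so a sequence without a match may still hold an m6A site.

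Start regions were available as windows from 250 bases before to 50 bases after an annotated start of a gene. Some genes have several windows, and a window need not lie at the first base of the gene body. Of the 407 peaks, 39 touched such a window and 12 lay wholly inside one, of which 7 lay in the window of a coding gene. The same motif, searched on both strands, was found on the peak's own strand in 4 of the 12 peaks (33.3%) and on the other strand in 2 (16.7%). Of the 12, 2 are LINC00667 peaks at nearly the same place on opposite strands, so their match enters both shares. In the middle 50 bases of all 35116 windows the share was 13.1% on the gene's strand, and in the middle 75 bases it was 19.4%. The 12 peaks are too few to set apart from these shares. The 4 peaks that held a match on their own strand are shown with the match in capitals, each read 5′ to 3′ on the strand the list gives. They lie at chr4:1250500-1250574 (plus strand, control, score 8.83), chr15:60479302-60479376 (plus, control, 9.34), chr18:5238151-5238200 (plus, shTRA2A, 7.15) and chr3:28576415-28576489 (plus, shMETTL3, 8.99).

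CTBP1-DT: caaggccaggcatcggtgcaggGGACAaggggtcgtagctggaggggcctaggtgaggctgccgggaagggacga

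RORA-AS1: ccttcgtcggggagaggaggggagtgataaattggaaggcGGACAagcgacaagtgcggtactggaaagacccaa

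LINC00667: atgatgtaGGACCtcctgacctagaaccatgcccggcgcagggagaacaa

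LINC00693: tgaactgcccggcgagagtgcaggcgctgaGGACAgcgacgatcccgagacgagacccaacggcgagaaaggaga

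A further 3 peaks are shown because results below turn on them. The SHROOM3-AS1 peak at chr4:76802080-76802154 (minus) had the best score of any shTRA2A peak given to an lncRNA gene that had no control peak. The MIR100HG peaks at chr11:122105811-122105860 (minus, control) and chr11:122105711-122105760 (minus, shMETTL3) lay 50 bases apart and did not overlap. They lay in the window of an internal start, the control peak at 80.4% of the gene body from the 5′ end. None of the 3 held the motif on either strand.

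SHROOM3-AS1: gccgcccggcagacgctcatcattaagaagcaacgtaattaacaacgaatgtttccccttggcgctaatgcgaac

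MIR100HG in control: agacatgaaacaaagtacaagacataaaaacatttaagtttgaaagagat

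MIR100HG after METTL3 knockdown: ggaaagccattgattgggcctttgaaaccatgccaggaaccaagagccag

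The peaks fell on 234 lncRNA genes, 146 in the control list, 53 in the shTRA2A list and 94 in the shMETTL3 list. Of these genes, 162 had a single peak over all lists, 72 had at least 2 and 19 had at least 4. Another 29 peaks touched more than 1 lncRNA gene with none nested in the rest and were given to no gene. JPX had the most peaks, with 9, followed by LINC-PINT with 8 and EOLA2-DT with 7. By name, 57 genes were long intergenic (LINC), 56 were named as antisense to another gene, 51 had only a locus number, 31 were divergent transcripts that start head to head with a coding gene, 9 were miRNA hosts and 3 were snoRNA hosts.

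**Figure D1:**
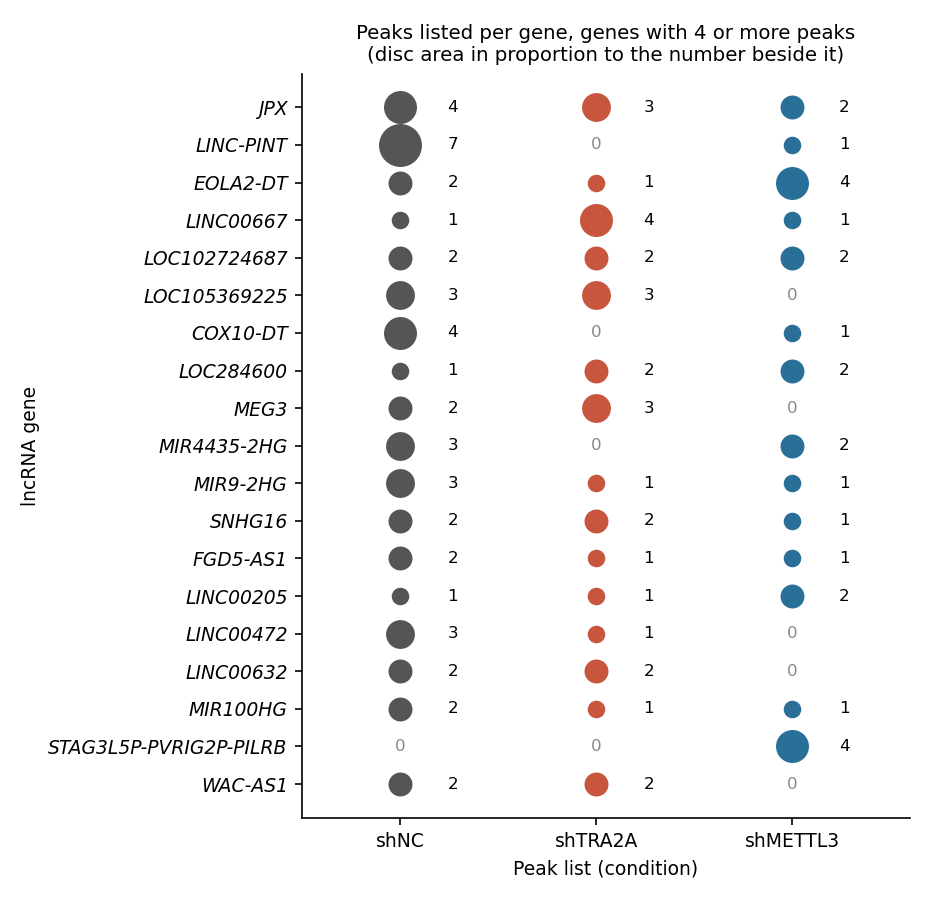
Number of peaks listed for each of the 19 lncRNA genes with at least 4 peaks (rows) in the control (shNC), shTRA2A and shMETTL3 lists (columns); disc area is in proportion to the printed number. LINC-PINT had 7 control peaks against 0 and 1, LINC00667 had 4 shTRA2A peaks against 1 and 1, and STAG3L5P-PVRIG2P-PILRB had 4 shMETTL3 peaks and none in the other lists.

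At the level of single peaks, few control peaks in lncRNA genes lay under a peak of either knockdown. An overlap was counted from 1 shared base on the same strand. Of the 210 control peaks, 18 met an shTRA2A peak (8.57%, 5.16 to 13.2), against 9.58% of all control peaks. The value for control peaks in coding genes was 9.63%, inside that interval. On shMETTL3 peaks there were 27 of 210 (12.9%, 8.65 to 18.2), against 17.9% of all control peaks. The value for coding genes there was 18.1%, also inside the interval. Of the 210, 7 met peaks of both knockdowns, 11 of shTRA2A alone, 20 of shMETTL3 alone and 172 of neither. The same split was not made over all control peaks, so these counts do not set lncRNA peaks apart from other peaks.

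In the other direction the shares over whole lists lay below those of coding genes, by more than the counting interval for shMETTL3 alone. For shTRA2A the lncRNA share was not below that of all peaks once only better-scoring peaks were kept, as given below. Of 77 shTRA2A peaks in lncRNA genes, 19 met a control peak (24.7%, 15.6 to 35.8), against 33.8% of all shTRA2A peaks and 34.4% of those in coding genes. With the better-scoring 50% of each list alone, 13 of 28 shTRA2A lncRNA peaks met a control peak (46.4%, 27.5 to 66.1). The share of all such peaks was lower, 41.6%, but inside that interval. Of 120 shMETTL3 peaks, 26 met a control peak (21.7%, 14.7 to 30.1), against 32.7% of all and 33.1% of those in coding genes, which lies above the interval. Between the knockdown lists, 8 of 77 shTRA2A peaks lay on an shMETTL3 peak (10.4%, 4.59 to 19.4), against 23.8% of all and 24.3% in coding genes. Of 120 shMETTL3 peaks, 9 lay on an shTRA2A peak (7.5%, 3.49 to 13.8), against 11.8% of all. The lists differ in length and have no replicates, so each share also depends on how many peaks the other list holds.

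**Figure D2:**
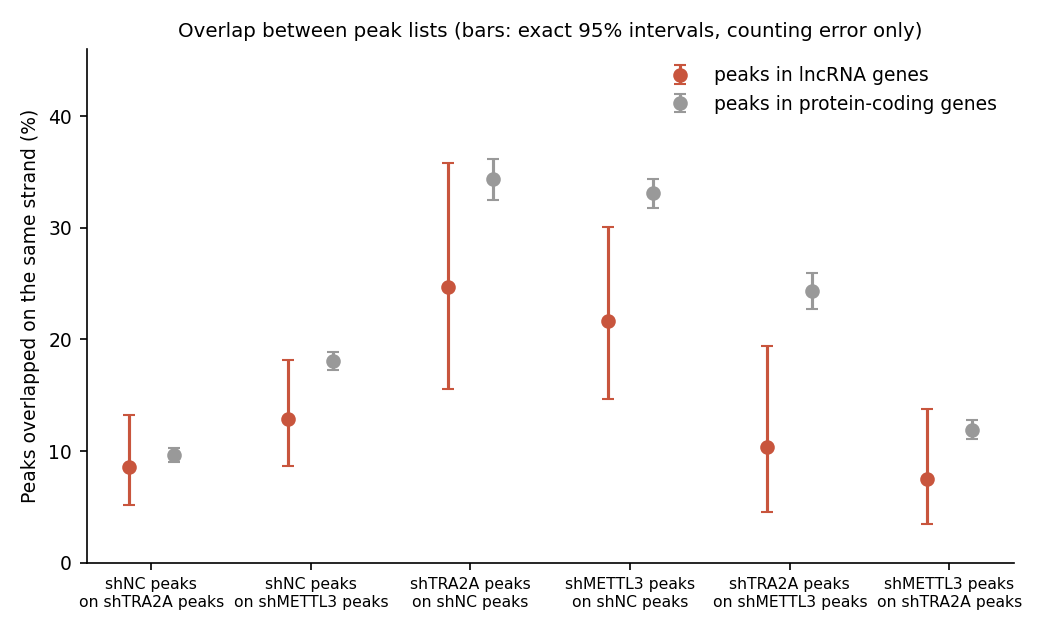
Share of peaks (%) that overlap a peak of a second list on the same strand, for peaks in lncRNA genes (red) and protein-coding genes (grey); points are the 6 ordered pairs of lists and bars are exact 95% intervals for counting error. The lncRNA intervals include the coding share for control peaks in both knockdowns, and lie below it for shMETTL3 peaks on control peaks (21.7% against 33.1%) and for shTRA2A peaks on shMETTL3 peaks (10.4% against 24.3%).

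Score moved with overlap. The score is the authors' own value for each peak, on a scale the sources used here do not state, and is used only within a list. The median score of lncRNA peaks was 10.4 in the control list against 12.4 over the whole list, 7.80 against 8.0 in the shTRA2A list and 8.20 against 8.40 in the shMETTL3 list. The median lncRNA peak stood at percentile 30.5, 35.8 and 46.1 of its list. Of the 210 control peaks, 71 were among the better-scoring 50% of the list. Of these 71, 13 met an shTRA2A peak (18.3%, 10.1 to 29.3), against 16.3% of all better-scoring control peaks, and 19 met an shMETTL3 peak (26.8%, 16.9 to 38.6), against 29.3%. Among the 139 lower-scoring control peaks the shares were 3.60% against 2.89% and 5.76% against 6.54%. For control peaks, the whole-list share lay inside the lncRNA interval in each score class. That did not hold in every other comparison. Among better-scoring shMETTL3 peaks, 25.5% of those in lncRNA genes met a control peak (14.7 to 39.0), against 39.5% of all. Among lower-scoring shTRA2A peaks, 0 of 49 met an shMETTL3 peak (0 to 7.25), against 12.7% of all.

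**Figure D3:**
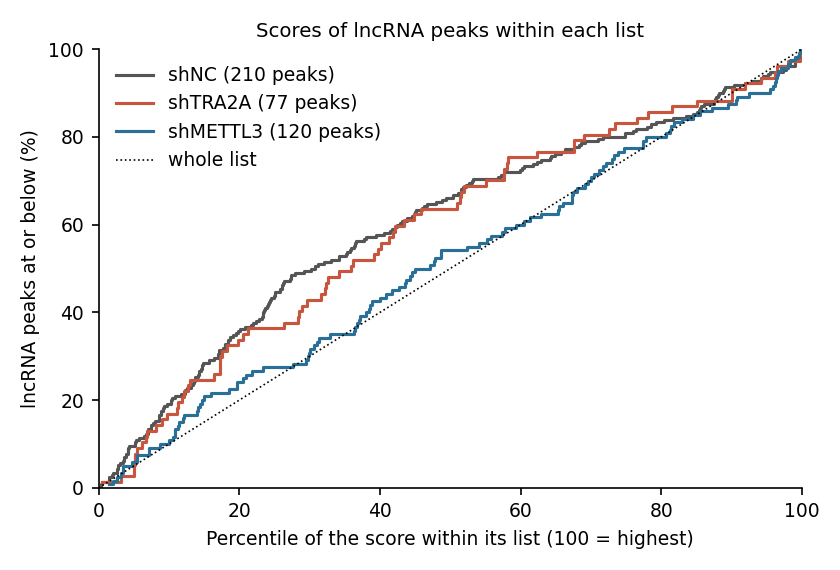
Cumulative share of lncRNA peaks (vertical axis, %) by percentile of the score within their own list (horizontal axis, 100 the highest) for shNC (210 peaks), shTRA2A (77) and shMETTL3 (120); the dotted diagonal is a whole list. The shNC and shTRA2A curves lie above the diagonal over most of the range and the shMETTL3 curve stays near it, with medians at 30.5, 35.8 and 46.1.

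Peaks were also narrow or very wide. The median width was 75 nt in the control list and in the shTRA2A list and 100 nt in the shMETTL3 list, against 125, 100 and 100 nt over whole lists. Peaks wider than 1000 nt made up 24.3%, 27.3% and 37.5% of lncRNA peaks, against 15.1%, 25.1% and 22.7% of all peaks. Among control peaks over 100 and up to 1000 nt wide, 7 of 47 met the shTRA2A list (14.9%, against 13.7% of all such control peaks) and 10 of 47 the shMETTL3 list (21.3%, against 27.6%). The widest lncRNA peaks reached 9428 nt in the control list and 9979 nt in the shTRA2A list, and such widths give no position for a methylated base.

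Counted by gene, the shares lay below those of coding genes. A gene counted as found with any peak given to it, at the same position or not. Peaks where an lncRNA gene shares its span with a coding gene, and peaks given to no single gene, did not count for it. Of the 146 lncRNA genes with a control peak, 23 were also in the shTRA2A list (15.8%, 10.3 to 22.7), against 28.6% of all genes and 29.1% of coding genes. With shMETTL3 there were 32 (21.9%, 15.5 to 29.5), against 46.9% of all genes and 47.8% of coding genes. In reverse, 23 of the 53 genes of the shTRA2A list had a control peak (43.4%, against 64.9% of all genes), as did 32 of the 94 genes of the shMETTL3 list (34.0%, against 60.1%). Genes with more peaks have more chances to be found again, and 113 of the 146 lncRNA genes had 1 control peak. With 1 control peak, 9.73% of lncRNA and 20.4% of coding genes were also in the shTRA2A list, and 16.8% and 36.5% in the shMETTL3 list. Among genes with 2 or more, the shares were 36.4% of lncRNA and 38.1% of coding genes for shTRA2A, and 39.4% and 59.5% for shMETTL3. The 33 lncRNA genes with 2 or more control peaks gave intervals of 20.4 to 54.9 for shTRA2A, which includes the coding share, and 22.9 to 57.9 for shMETTL3, which lies below it. With 1 control peak the intervals, 4.96 to 16.8 and 10.4 to 25, both lay below the coding shares.

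Of the 234 genes, 102 had peaks in the control list alone (43.6%, against 31.3% of all 5882 genes with a peak), 58 in the shMETTL3 list alone (24.8%, against 18.6%) and 26 in the shTRA2A list alone (11.1%, against 7.57%). A further 21 were shared by control and shMETTL3, 12 by control and shTRA2A and 4 by the knockdown lists without the control. These shared counts were not made over all genes with a peak, so they do not set lncRNA genes apart. The 11 genes with peaks in all lists (4.70%, against 14% of all genes with a peak) were JPX, EOLA2-DT, LINC00667, LOC102724687, LOC284600, SNHG16, MIR9-2HG, FGD5-AS1, LINC00205, MIR100HG and EOLA1-DT. A gene in all lists did not always have the same peak in them. In EOLA1-DT, EOLA2-DT, FGD5-AS1, LOC102724687 and LOC284600 a control peak was met in both knockdowns. In JPX, LINC00667, LINC00205, MIR100HG, SNHG16 and MIR9-2HG no control peak was met in both.

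Known lncRNAs are described next by list. Over all 18303 lncRNA genes, 0.798% had a control peak, 0.290% an shTRA2A peak and 0.514% an shMETTL3 peak, and these are the shares to set beside each list. The lists hold known genes chosen with results in view, so a higher share in a list is a description. Known genes may also be expressed more often than the 18303 genes as a whole. Expression was not measured, so the shares were not matched for it.

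Among lncRNAs that act on chromatin or are imprinted, 28 genes of a list of 32 matched RefSeq and 12 of those lie across a coding gene body. Of the 28, 5 had a control peak (CHASERR, FTX, JPX, LINC-PINT and MEG3; 17.9%), 3 an shTRA2A peak (10.7%) and 4 an shMETTL3 peak (14.3%). JPX, a transcript of the X-inactivation centre, had control peaks with scores of 18.9 and 35.9 on the plus strand, its own, and 39.4 and 9.80 on the minus strand, all within chrX:73999782-74000268. Its shTRA2A peaks scored 8.28 (plus), 8.63 and 7.86 (minus), and the first 2 lay inside control peaks of 375 and 400 nt. Its shMETTL3 peaks were 3948 nt (plus, score 10.0) and 2811 nt (minus, 17.7) wide and began beyond the last control peak, so no base was shared. JPX was thus listed on both strands in all conditions. The shTRA2A list held peaks at the control position and 1 downstream of it, and the shMETTL3 list held peaks downstream alone. FTX, transcribed from the same centre in the opposite direction, had 2 control peaks of 550 nt at 1 place on both strands (28.8 and 26.9) and 1 shMETTL3 peak of 50 nt just outside that place (4.44).

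MEG3, an imprinted lncRNA expressed from the maternal allele, had a control peak of score 24.97 at chr14:100831859-100832183 (plus strand, its own) in the 5′ part of the gene. Of its 3 shTRA2A peaks, those scored 7.47 and 11.6 overlapped this control peak and the third, 7.54, lay further downstream. A control peak near the 3′ end (11.9) was met by neither list, and MEG3 had no shMETTL3 peak. CHASERR, a transcript next to CHD2 known to restrain CHD2 expression, had a control peak of 28.6 and an shTRA2A peak of 8.43 inside it, and no shMETTL3 peak. FIRRE, an X-linked lncRNA that shapes nuclear organisation, had a single shMETTL3 peak, 5432 nt wide, with score 22.9 and rank 184 of its list.

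LINC-PINT, a p53-induced lncRNA that binds the PRC2 chromatin complex, had the most control peaks of any lncRNA gene. Its 7 peaks formed clusters at the ends of a gene body of 232364 nt: 5 within the first 0.8% from the 5′ end, with scores of 8.48 to 18.3, and 2 near 98% of the body, with scores of 27.3 and 11.3. No shTRA2A peak was listed. The 1 shMETTL3 peak, chr7:131109828-131109877 (minus, 7.79), starts 1 base beyond the end of the widest control peak, which runs from 131108720 to 131109827. In the list of p53 and DNA damage lncRNAs, 10 genes matched and LINC-PINT was the 1 gene with a peak, in the control and shMETTL3 lists (10% of the list in each).

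Host transcripts of miRNAs were among the genes listed under several conditions. Of 93 matched hosts, 26 lie across a coding gene body, 9 had a control peak (9.68%), 4 an shTRA2A peak (4.30%) and 6 an shMETTL3 peak (6.45%). All 4 hosts of the shTRA2A list (MIR100HG, MIR570HG, MIR9-2HG and MIRLET7IHG) and 5 of the 6 of the shMETTL3 list also had a control peak. Of the 9 hosts with a control peak, 4 were thus in the shTRA2A list and 5 in the shMETTL3 list, beside 23 and 32 of all 146 lncRNA genes. MIR9-2HG had 3 control peaks beside and across the hairpin shown above, with scores of 11.04, 41.7 and 23.5 in the direction of transcription. The shTRA2A peak (17.7, rank 55 of 2736) overlapped the second of them and ended 74 nt before the hairpin. The shMETTL3 peak (22.4, rank 196 of 5433) was 50 nt wide, lay inside the third and began 16 nt after the hairpin. Each knockdown list thus held a peak at 1 of the 2 stronger control positions, and neither list had a peak on the hairpin itself. A further 2 control peaks (7.96 and 8.09) touched both MIR9-2HG and MEF2C-AS2 and were given to neither.

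**Figure D4:**
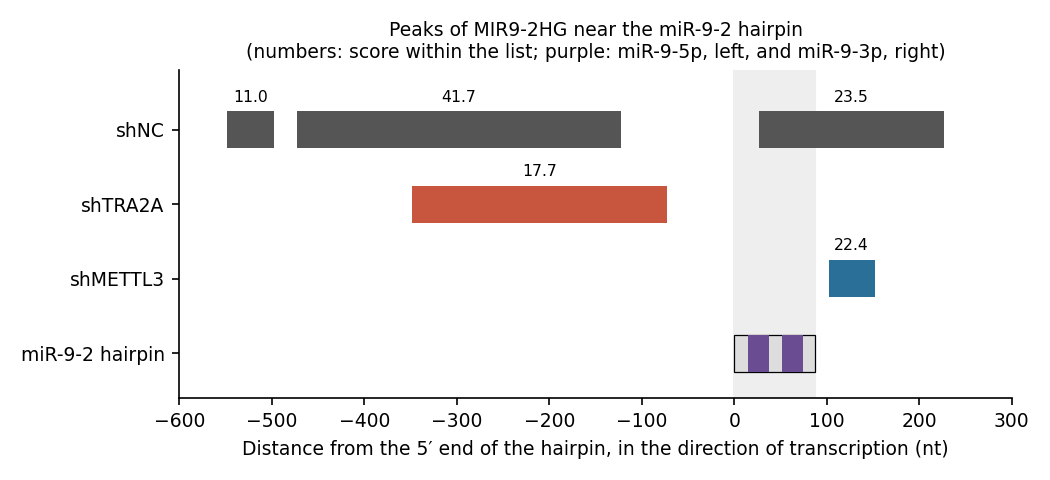
Peaks of MIR9-2HG in the 3 lists (rows) against distance in nt from the 5′ end of the miR-9-2 hairpin, in the direction of transcription; numbers are scores within each list, the shaded band is the hairpin and the purple blocks are miR-9-5p (left) and miR-9-3p (right). The control peak of 23.5 covers 60 of the 87 bases of the hairpin, the shTRA2A peak (17.7) ends 74 nt before it and the shMETTL3 peak (22.4) begins 16 nt after it.

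No other miRNA hairpin was touched. The 13 member genes with a hairpin inside their body held 19 hairpins. Counted against all RefSeq hairpins, in these genes or not, 9 of the 407 peaks lay within 2000 nt of one on the same strand. In MIR100HG, host of miR-100, let-7a-2 and miR-125b-1, the nearest peak was an shMETTL3 peak 5867 nt from the miR-125b-1 hairpin. Its control peaks scored 27.0 and 10.5, its shTRA2A peak 4.76, near the foot of that list, and its shMETTL3 peak 8.30, and no control peak was met. In MIRLET7IHG, host of let-7i, a control peak (20.2) and an shTRA2A peak (8.96) did not overlap, and the nearer of them lay 10102 nt from the hairpin. In MIR99AHG the 2 peaks were on opposite strands: a control peak of 8261 nt (11.5) along the gene and an shMETTL3 peak of 4554 nt (34.0, rank 52) against it. MIR4435-2HG, a host gene also known from immune cells, had 3 control peaks, no shTRA2A peak and 2 shMETTL3 peaks, and a span of 4059 nt had the same ends in the control (11.8) and shMETTL3 (26.9, rank 106) lists.

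Of 31 matched snoRNA hosts, 15 lie across a coding gene body, and 1 had a control peak (3.23%), 2 an shTRA2A peak (6.45%) and 3 an shMETTL3 peak (9.68%). SNHG16 was in all lists. Its control peak of 17.0 was met by an shMETTL3 peak of 10.5, while its shTRA2A peaks (6.84 and 7.24) lay on both strands at 1 place between the 2 control peaks. SNHG22 had adjoining peaks of 50 nt in both knockdown lists, 8.45 for shTRA2A and 7.87 for shMETTL3, near its 5′ end, and none in the control list. No lncRNA peak touched a snoRNA gene in any list.

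Of the cytoplasmic and RNA decay lncRNAs, 23 matched, 12 of them across a coding gene body, and FGD5-AS1, LINC00667 and OIP5-AS1 had a control peak, 13% of the list. The first 2 also made up the 8.7% with a peak in each knockdown list. FGD5-AS1, described as a cytoplasmic RNA that binds miRNAs, was the only gene of this list with a control peak met in both knockdowns. Its control peak at chr3:14945637-14947118 (minus strand, its own) scored 53.3, rank 253. An shTRA2A peak at 14945912-14946136 (14.4, rank 97) and an shMETTL3 peak at 14945812-14946136 (14.3, rank 694) lay inside it and shared their right end. LINC00667 differed: the control peak (12.3), the 4 shTRA2A peaks and the shMETTL3 peak (6.18) lay at separate places. The shTRA2A peaks form pairs of equal width on both strands, shifted by 1 base, with scores of 7.15 and 7.15 and of 8.16 and 8.17. OIP5-AS1, a conserved RNA that binds miR-7, had a control peak alone (14.8).

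Of 50 matched glioma and cancer lncRNAs, 18 lie across a coding gene body, and 6 had a control peak (12%), 2 an shTRA2A peak (MEG3 and MIR9-2HG, 4%) and 5 an shMETTL3 peak (10%). SOX2-OT, the transcript whose body holds the stem cell factor gene SOX2, had 2 control peaks of 75 nt with scores of 82.2 and 81.0, ranks 85 and 89 of 9206. Neither was met. Its shMETTL3 peak was 6701 nt wide, lay upstream and scored 8.51. Of 30 matched interferon and immune lncRNAs, 14 across a coding gene body, 1 had a control peak (3.33%), 1 an shTRA2A peak (3.33%) and 2 an shMETTL3 peak (6.67%).

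Among divergent transcripts, EOLA2-DT and EOLA1-DT, which start beside a pair of related genes on the X chromosome, had a peak at a shared position in every list. EOLA2-DT had a control peak of 952 nt (24.6) that recurred with the same ends in the shTRA2A list (9.81). An shMETTL3 peak of 1077 nt (6.75) covered it together with the second control peak (9.85). The best of the 4 shMETTL3 peaks of EOLA2-DT, 265 nt wide (22.3, rank 198), lay just before them and met no control peak. In EOLA1-DT a control peak of 1607 nt (15.9) was met by a peak of 1682 nt with the same ends in both knockdown lists, scored 9.33 for shTRA2A and 6.37 for shMETTL3. COX10-DT had 4 control peaks (8.27 to 12.9) in the last part of the gene, and its 1 shMETTL3 peak (10.3) lay inside the strongest of them, while no shTRA2A peak was listed.

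LOC105369225 showed the reverse, with 3 control peaks (7.65 to 10.5) on both strands, 3 shTRA2A peaks (7.16 to 7.54) that met 2 of them, and no shMETTL3 peak. LINC00205 had a control peak of 275 nt (16.1) met by an shMETTL3 peak of 50 nt (7.66) at its edge, and its shTRA2A peak (8.10) lay nearer the 5′ end. LOC284600 had a control peak of 75 nt (15.1) with the same ends in the shTRA2A (8.15) and shMETTL3 (7.57) lists.

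The strongest control peaks differed in whether a knockdown list held them. The top 2 belonged to LOC102724687, an uncharacterised gene on chromosome 8, with scores of 171 and 170, ranks 7 and 8 of 9206. Both had the same ends in all lists, with shTRA2A scores of 42.5 and 42.5 and shMETTL3 scores of 47.8 and 12.3. Next came LOC107986651 (135), LINC00342 (103, 8654 nt wide), ZKSCAN7-AS1 (88.9) and EP300-AS1 (82.7), and none of these genes had a peak in either knockdown list. PPM1B-DT (59.4, against the strand of its gene) had none either. OTUD6B-AS1 (58.1) was met by an shMETTL3 peak of 8.13. In all, 14 lncRNA peaks had the same ends in more than 1 list and 4 in every list: both LOC102724687 peaks, 1 of LOC284600 and a span of 5384 nt shared by LINC01409 and LOC124903817. The same count was not made over all peaks, so it does not set lncRNA peaks apart from other peaks.

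Some genes had peaks in a knockdown list and none in the control list. In the shTRA2A list SHROOM3-AS1, whose peak sequence is shown above, scored 14.2 (rank 106 of 2736). It was followed by LOC124902176 (11.05), BDKRB1-AS1 (8.69), SNHG22 (8.45), MHENCR (8.03), LOC124903834 (7.93) and NR2F1-AS1 (7.88), the last 5 near the list median of 8.0. In the shMETTL3 list LOC124906302 led with 44.2 (rank 24 of 5433), followed by LINC01234 (28.3, 75 nt wide, rank 89), LINC02450 (23.7), FIRRE (22.9), LINC01551 (22.02), LOC100630923 (21.5) and LINC00693 (16.3). BDKRB1-AS1, SNHG22, NR2F1-AS1 and CA5BP1-CA5B had peaks in both knockdown lists and none in the control list, but in none of them did the peaks share a base. The 1 pair of peaks that did so without a control peak was in LOC284600, at chr1:904859-904933 (plus), with scores of 8.15 for shTRA2A and 12.1 for shMETTL3. LOC284600 had a control peak elsewhere.

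Positions along the gene differed from those in coding genes. Gene strand was known for 171 of the 234 genes, and positions were taken for peaks on the gene's own strand. In the first 20% of the body lay 28.6% of the 133 control peaks, 33.3% of the 42 shTRA2A peaks and 40.7% of the 81 shMETTL3 peaks, against 10.2%, 13.8% and 13.4% in coding genes. In the last 20% lay 30.8%, 16.7% and 17.3%, against 48.4%, 40% and 41.5%. Exact 95% intervals for the lncRNA shares in the first 20% were 21.1 to 37.0, 19.6 to 49.5 and 29.9 to 52.2, above the coding value in each list. Positions run along the genomic body, introns included, and were not corrected for exon layout.

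**Figure D5:**
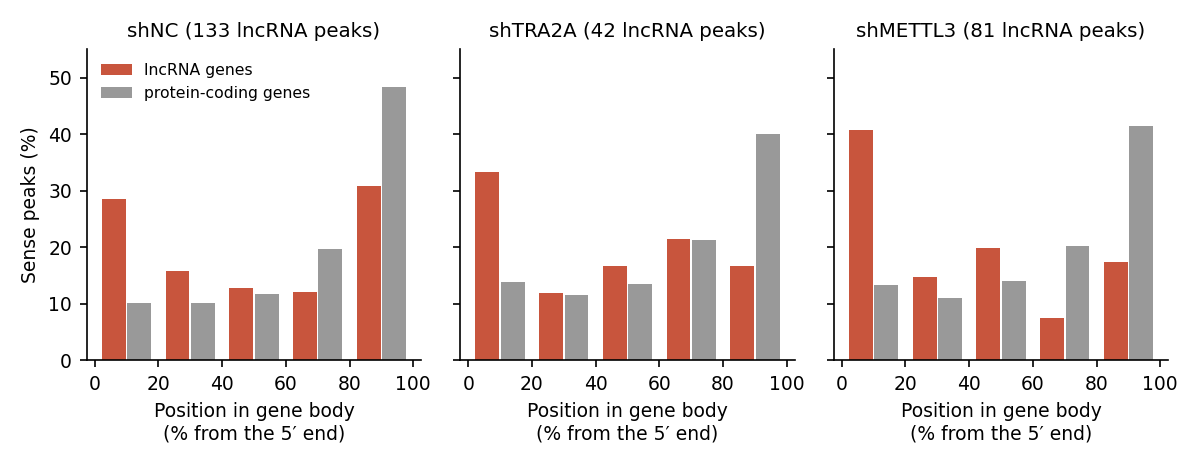
Share of sense-strand peaks (%) in each 20% step of the gene body from the 5′ end (0) to the 3′ end (100), for lncRNA genes (red) and protein-coding genes (grey) in the shNC, shTRA2A and shMETTL3 lists. Coding peaks are most frequent in the last step of each panel (48.4%, 40% and 41.5%), and lncRNA peaks are about as frequent in the first step as in the last in shNC (28.6% and 30.8%) and more frequent in the first in the other lists.

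A larger part of lncRNA peaks lay against the strand of their gene. Of the peaks with known gene strand, 19 of 152 in the control list (12.5%, 7.70 to 18.8), 11 of 53 in the shTRA2A list (20.8%, 10.8 to 34.1) and 11 of 92 in the shMETTL3 list (12%) were antisense, against 4.54%, 4.94% and 4.73% of peaks in coding genes. A second peak at the same place on the opposite strand, as in JPX, was present for 7.62%, 11.7% and 6.67% of lncRNA peaks, against 7.02%, 4.97% and 5.37% of all peaks. Of the 19 antisense control peaks, 0 met an shMETTL3 peak (0 to 17.6), an interval that includes the 12.9% of all lncRNA control peaks, and 2 met an shTRA2A peak (10.5%, beside 8.57%). Some antisense control peaks, as in LOC105373900 and LOC105369225, touched an annotated pseudogene. That of TMEM139-AS1 lay 226 nt after the end of the coding gene GSTK1, on the strand of GSTK1. An antisense peak thus need not belong to the lncRNA gene, and the share near such features was not counted.

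Most peaks lay far from coding genes: 69.5% of control, 74.0% of shTRA2A and 64.2% of shMETTL3 peaks were at least 5000 nt from any coding gene body. Of the nearer ones, 41 control, 10 shTRA2A and 24 shMETTL3 peaks lay upstream of a coding gene's start on the strand opposite to it, where divergent transcripts run. Downstream of a coding gene's end on its own strand, the place of a read-through or unannotated 3′ end, lay 2, 1 and 2 peaks. The rule asked for an annotated lncRNA gene body, so both counts depend on where such genes are annotated. Read-through was not tested. Near peaks whose coding gene had no known strand, such as those of OTUD6B-AS1 and SNHG16, entered neither count, so both counts may be too low. Some genes annotated as lncRNA are themselves read-through or pseudogene loci. STAG3L5P-PVRIG2P-PILRB had 4 shMETTL3 peaks (7.82 to 12.5) and none in the other lists, and TIMM23B-AGAP6 had 2 control peaks alone, 42.9 on its own strand and 11.4 against it. Reads of such loci can also belong to near-identical copies, so their assignment is uncertain. Chromosome X held 6.67%, 11.7% and 8.33% of lncRNA peaks, against 2.39%, 3.11% and 2.74% of all peaks, with JPX, FTX, EOLA1-DT and EOLA2-DT among the genes.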

How the data were processed

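The 3 deposited peak lists, 1 per condition, are 12-column BED files without a header; the score of column 5 is as deposited, on an unstated scale. Another deposited list equals the shTRA2A list and matches no label, so it was not used. Build GRCh38, HISAT2 2.2.1, featureCounts 2.0.1 and SAMtools are named in the submitters' processing notes. The sources used here give no peak caller or threshold.

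Peaks were given to gene bodies of RefSeq (GRCh38.p14, 20046 coding and 18303 lncRNA genes, no exons) with pandas 2.3.3, numpy 2.4.6 and scipy 1.17.1 under Python 3.11.15. Coordinates count from 1. Gene strand came from the RefSeq start windows (11461 lncRNA genes). Windows of genes on opposite strands were reverse complements in all 2819 pairs checked. Simulated data and bedtools 2.31.1 were used to check classes and overlaps (0 control peaks differed). Intervals are exact Clopper-Pearson at 95%; reads amplified by PCR are not independent molecules, nor are peaks of a gene, so they may be too narrow. No test between conditions was run. The members, the gene lists and the rule for named genes (genes with the most peaks, peaks with the highest score, genes in every list, list members, passing over LOC numbers but for the first) were chosen with earlier results of these data known. Other genes named were chosen after their values were seen. Alternatives changed the overlap, score, width and distance rules.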

Additional observations from a re-analysis of the deposited data

How the results depend on the processing

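Of 72 alternatives run on the overlap shares, gene shares and counts, 58 stayed within the 95% interval of the value above, or within 1.5 times a count, and 14 did not. With the better-scoring 50% of each list alone, 18.3% of control lncRNA peaks met an shTRA2A peak (12% of all control peaks) and 46.4% of shTRA2A lncRNA peaks met a control peak (41.6% of all). That setting left 71, 28 and 55 lncRNA peaks and 58, 20 and 44 lncRNA peak genes in the shNC, shTRA2A and shMETTL3 lists. When a control peak of the gene itself had to be met, 8.90% of lncRNA genes were found with shTRA2A. Keeping peaks at least 5000 nt from coding genes left 77 shMETTL3 peaks and 35 shTRA2A and 60 shMETTL3 genes. Keeping regular widths (1 block, a multiple of 25 nt, at most 1000 nt) left 65 shMETTL3 peaks in 54 genes. Leaving out LOC102724687, or peaks with an opposite-strand peak at the same place, was added after seeing the data and moved no overlap share out of its interval. No paired analysis was possible because each condition has 1 library pair. The sources used here give no depth, so a missing peak may reflect too few reads.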

Other observations

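Several genes held peaks with equal or near-equal scores at distant places in 1 list, but equal scores also occurred between genes. LINC03061 and LOC124902176, on different chromosomes, both had a best shTRA2A score of 11.05. Equal scores were not counted over whole lists, so they do not link the places that hold them. The LOC102724687 peaks scored 42.5 and 42.5 in the shTRA2A list, the LOC284600 peaks 8.15 and 8.15 in the same list although 1 lies near the gene's start and the other past its middle, and the SOX2-OT control peaks 82.2 and 81.0. Of the peaks given to no single gene, a pair in HCG17 and HCG18 occurred in the control list and another in the shTRA2A list without shared bases, and 1 of the control pair (14.1) was met by an shMETTL3 peak (6.64). WAC-AS1, antisense to the gene of the adaptor protein WAC, had 2 control peaks of 75 nt (11.98 and 11.91), each holding an shTRA2A peak of 50 nt (7.70 and 7.90), and no shMETTL3 peak. LINC03006 had a 50 nt peak with the same ends in the control (38.7) and shMETTL3 (12.3) lists, and in the shMETTL3 list also a span of 7153 nt on the opposite strand (20.7).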
